A study of Mus musculus with 40 samples.

Results

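The 9 genes described here encode transcription factors and chromatin-bound proteins of the pluripotent state: Pou5f1, Sox2, Nanog, Zfp42, Esrrb, Tcfcp2l1, Tbx3, Sall4 and Utf1. They were followed in mouse embryonic stem (ES) cells after Pou5f1 was shut off and in ES cells carrying a Nanog transgene. Every gene probe whose current or older symbol is one of these names was taken, which gave 12 of 42006 gene probes on the arrays of the early time course, 9 of 21052 on those of the late time course and 10 of 41006 on those of the Nanog experiment. The 12 distinct probe sequences include 9, 1 for each gene, that stand on all 3 array designs and are called here by the gene's name. A second probe for Pou5f1 was on the early and Nanog arrays, and second probes for Zfp42 and Tcfcp2l1 were on the early arrays. Tcfcp2l1 is the older symbol of Tfcp2l1.

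All arrays were of 2 colours, with sample RNA labelled with Cy3 against a common Universal Mouse Reference RNA labelled with Cy5. Values are log2 ratios of Cy3 over Cy5, so that 1 unit is a 2-fold difference from the reference, and a level of one probe is not compared with that of another. In ZHBTc4 ES cells (strain 129/Ola) both endogenous Pou5f1 alleles are disrupted at every time including 0 hr, and a tetracycline (Tet)-repressible Pou5f1 transgene keeps the cells pluripotent until Tet is added. The early time course held cells taken before Tet (0 hr) and 3, 6, 12 or 24 hr later (2 arrays each). The late time course held cells of the same line before Tet and 24, 48, 72, 96 or 120 hr later (3 arrays each). The treatment text in the labels of the late arrays describes a Tcl1 vector in another ES line, while their titles name ZHBTc4, and the titles were followed. In the Nanog experiment a clone with Nanog in an integrated pEF6 plasmid (strain 129SvEv-Tac) and a clone with Nanog in an episomal pPYFloxed vector (strain 129Sv) were each paired with the unmodified line of the same strain, ES 129.3 at passage 12 and MG1.19 at passage 5. Each of these 4 male lines was grown for 3 days with leukemia inhibitory factor (LIF), without LIF, or with LIF and 1 µM retinoic acid (RA), with 1 array per line and medium. Each transgenic line is 1 clone, and the series' design text names other parental lines than the sample labels do, so the pairs follow the labelled strains. The labels do not say that replicate arrays came from separate cultures, and p-values therefore measure the spread between these samples, which may be technical. In bulk RNA, fewer ES cells and less RNA per cell cannot be told apart.

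POU5F1 (also called OCT4) and SOX2 bind DNA side by side and activate genes of the pluripotent state, Nanog and their own genes among them. NANOG, ESRRB, TFCP2L1 and TBX3 belong to the more flexible part of the network that keeps mouse ES cells in the naive, preimplantation-like state, and LIF acts on it through STAT3. Loss of POU5F1 in ES cells is known to lead to trophectoderm-like cells, and RA is a general inducer of differentiation.

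The probe letters matter most for Pou5f1, the targeted gene, whose pair of probes gave different results below. The probe on all 3 designs and the second probe do not overlap, and both are shown 5′ to 3′ as printed on the arrays, with no part marked.
Pou5f1: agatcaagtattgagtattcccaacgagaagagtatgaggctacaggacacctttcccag
Pou5f1 second probe: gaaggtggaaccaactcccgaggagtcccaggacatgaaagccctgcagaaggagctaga
The study places its array oligonucleotide for Pou5f1 in the open reading frame and reads it as the transgene, without saying which of these probes is meant. Whether RNA of the disrupted alleles carries either sequence is not stated in the sources used here.

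The Zfp42 probes overlap by 24 bases at the 5′ end of the probe found on all designs, and they carry 2 different letters there, shown in capitals (C2T and G22C, counted from 1 at the 5′ end of that probe, its base first). Their time courses can therefore not be taken as independent of each other.
Zfp42, overlap: gCatagttccaacaggaaagtGaa
Zfp42 second probe, overlap: gTatagttccaacaggaaagtCaa

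Promoter sequence was taken from a table of RefSeq windows (GRCm38.p6), from 250 bases before to 50 after a start, in which 10 windows matched 7 of the 9 genes, all but Sall4 and Tbx3. The POU-SOX composite motif, searched on both strands with 1 open position between its SOX and octamer letters, was found in the windows of Nanog alone among these genes and in 12 of all 32851 windows (0.037%). The 250 bases before 1 Nanog start (chr6:122707239-122707488, + strand) are shown with the composite motif and the SOX core CATTGT, both read on the other strand and overlapping, in capitals. The composite motif ends 63 bases before this start.
Nanog: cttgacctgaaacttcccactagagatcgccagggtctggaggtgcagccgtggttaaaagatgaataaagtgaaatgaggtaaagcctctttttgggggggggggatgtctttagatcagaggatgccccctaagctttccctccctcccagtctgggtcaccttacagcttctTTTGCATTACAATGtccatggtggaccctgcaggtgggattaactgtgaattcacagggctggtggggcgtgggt
The octamer ATGCAAAT was in 570 of the windows (1.74%), that of Zfp42 among them. It is in capitals, read on the other strand, in the 250 bases before the Zfp42 start (chr8:43307010-43307259, - strand).
Zfp42: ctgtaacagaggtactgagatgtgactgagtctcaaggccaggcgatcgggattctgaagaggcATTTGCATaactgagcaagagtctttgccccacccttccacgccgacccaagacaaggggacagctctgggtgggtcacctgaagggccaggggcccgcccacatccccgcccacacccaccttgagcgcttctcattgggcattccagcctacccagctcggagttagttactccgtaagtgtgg
The SOX core alone was in 12.6% of windows and in those of Nanog, Esrrb and Pou5f1, and the ESRRB core CAAGGTCA was in 1.56% of windows and in none of the 10. These matches are letters only, and binding was not measured.

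Negative control spots set the level below which a signal was not read. That level was put at their 95th percentile, and every one of these probes exceeded it on all 10 early and all 12 Nanog arrays. Esrrb did so narrowly. Its Cy3 signal was 431 to 445 on the early arrays, where the level was 401 to 426. On the Nanog arrays it was 413 to 456, where the level was 399 to 433. Sall4 also lay near the level on the Nanog arrays, with a Cy3 signal of 425 to 471. On the late arrays its signal was 573 to 729, where the level was 506 to 653. On the late arrays Esrrb was below that level on all 18 arrays, and Pou5f1 was above it on 15 of 18, with 2 of the 3 arrays at 24 hr and 1 of the 3 at 48 hr above it. The late values of Esrrb are therefore background signal, and the low values of Pou5f1 lie near it. The 120 hr signals of Nanog (516 to 579) and Sox2 (571 to 624) were above the level on 3 of 3 arrays but also near it. A fall that ends near this level may be larger in RNA than its ratio shows.

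In the late time course, 7 of the 9 genes fell over 120 hr. Pou5f1 and Tbx3 were called at 24 hr, and Sox2, Nanog, Tcfcp2l1, Zfp42 and Utf1 were first called at 48 hr. The F test over all times (limma, adjusted p at most 0.05 over all gene probes and a change of at least 1.5-fold from 0 hr at some time) called 24.6% of gene probes and 7 of these 9. Esrrb and Sall4 did not pass.

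Pou5f1, whose product is removed by design, stood at 1.91, 2.40 and 2.04 at 0 hr and at 0.01, -0.30 and 0.09 at 24 hr. Each of the 15 arrays from 24 hr on was below each 0 hr array, between -0.30 and 0.12. The change at 24 hr was -2.18 ± 0.11 on the log2 scale (SE from limma, 4.54-fold lower, adjusted p = 2.41e-10). None of the later steps was called, and at 120 hr it was -2.07 ± 0.11 from 0 hr (adjusted p = 4.87e-11).

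Sox2, the DNA-binding partner of POU5F1, had the largest fall of the 9 in measured ratio. Its 0 hr ratios were 5.47 and 5.30, with 1 spot left out as an outlier, as marked by the scanner software, and at 24 hr they were 5.10 and 5.15. They then stood at 4.14, 3.93 and 3.82 at 48 hr and 2.07, 2.20 and 2.29 at 72 hr. The 96 hr arrays held 1.55, 1.82 and 1.61, and the 120 hr arrays 1.17, 1.21 and 1.03. Both 24 hr arrays lay below both 0 hr arrays, and no array at 48 hr or later overlapped either group. The change of -0.26 at 24 hr did not pass (adjusted p = 0.102), but it was called without background correction (-0.80, adjusted p = 1.6e-07) and in Cy3 alone (-1.28, adjusted p = 1.02e-05). That of -1.42 at 48 hr did (adjusted p = 5.07e-08), and at 120 hr Sox2 was 19-fold lower (-4.25 ± 0.10, adjusted p = 4.7e-14). The largest step was between 48 and 72 hr, by -1.78 ± 0.09 (adjusted p = 6.41e-09), after a step of -1.16 from 24 to 48 hr (adjusted p = 1.86e-06).

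Nanog, a homeodomain factor of the naive state, followed the same order of times. It stood at 2.64 and 2.78 at 0 hr, with 1 spot left out, and at 2.62, 2.53 and 2.56 at 24 hr. The later arrays held 2.11, 2.09 and 1.90 at 48 hr and 0.48, 0.89 and 0.98 at 72 hr. By 96 hr the values were 0.05, 0.11 and 0.24, and by 120 hr they were -0.15, -0.09 and -0.01. The 24 hr change of -0.14 did not pass (adjusted p = 0.419), and the changes of -0.68 ± 0.12 at 48 hr (adjusted p = 0.000282) and -2.79 ± 0.12 at 120 hr (6.93-fold lower, adjusted p = 8.52e-12) did. The 48 hr change was under 1.5-fold with the processed signals of the scanner software (-0.58) and with the authors' values (-0.56). Between 48 and 72 hr it fell by 1.25 (adjusted p = 5.64e-07) and between 72 and 96 hr by 0.65 (adjusted p = 0.000749).

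Tcfcp2l1, a grainyhead-like factor of the naive network that LIF sustains, reached its low level at 72 hr and stayed there. It stood at 3.12 and 3.01 at 0 hr, at 2.71 on both arrays kept at 24 hr, and between 2.34 and 2.37 at 48 hr. The 9 arrays from 72 hr on all lay between 1.57 and 1.68. The change from 0 hr amounted to -0.72 at 48 hr (adjusted p = 4.17e-08) and to -1.42 at 72 hr (adjusted p = 9.56e-12), and the later steps of -0.04 and 0.00 did not pass (adjusted p = 0.813 and 0.998).

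Tbx3, a T-box repressor of the same network, was called at 24 hr, as Pou5f1 was. Its 0 hr values of 3.79, 3.94 and 3.83 were followed by 3.18, 3.21 and 3.39 at 24 hr, and then by 3.52, 3.58 and 3.59 at 48 hr, each above every 24 hr array and below every 0 hr array. The 24 hr change of -0.59 ± 0.06 lay just past the 1.5-fold limit (adjusted p = 1.19e-06), and the call rested on that limit. Median centring, the processed signals, the authors' values and the bleaching correction put it between -0.45 and -0.57, and leaving out the second 0 hr or the first or second 24 hr array put it between -0.55 and -0.56, all under the limit, while it was -0.65 without background correction and -0.96 in Cy3 alone. The rise from 24 to 48 hr was 0.30 (adjusted p = 0.00226, 1.23-fold). Tbx3 then fell to 2.34, 2.39 and 2.28 at 120 hr, -1.51 ± 0.06 from 0 hr (2.85-fold lower, adjusted p = 1.52e-12).

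Zfp42 (also called Rex1), a zinc finger protein widely used as a marker of undifferentiated ES cells, changed less as a ratio. It stood at 4.78, 4.84 and 4.63 at 0 hr, the last of them from a saturated spot, at 4.30, 4.30 and 4.51 at 24 hr, and between 3.80 and 4.11 on all 12 arrays from 48 hr on. The changes were -0.38 at 24 hr (adjusted p = 0.000293, under 1.5-fold), -0.90 at 72 hr (1.87-fold lower, adjusted p = 6.83e-09) and -0.79 at 120 hr (adjusted p = 2.37e-08). The 48 hr change of -0.67 was under 1.5-fold with the processed signals (-0.48) and with the bleaching correction (-0.54). With the bleaching correction the 120 hr change was under that limit too (-0.58).

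Utf1, a chromatin-bound protein of undifferentiated ES cells, rested on 1 array at 0 hr, at 2.02, because the other two spots were left out as outliers. Its values were 1.68 and 1.91 at 24 hr and lay between 1.09 and 1.48 on the 12 arrays from 48 hr on. Its change from 0 hr amounted to -0.73 at 48 hr (adjusted p = 9.98e-05), and by 120 hr to -0.87 ± 0.11 (adjusted p = 1.03e-05). These tests have no spread of their own at 0 hr and assume that the lone array varies like the other groups. With the outlier spots kept, the changes were -0.58 at 48 hr and -0.51 at 72 hr, both under 1.5-fold, and -0.72 at 120 hr.

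Sall4, a zinc finger protein of ES cells, lay between 0.20 and 0.46 on all 18 arrays, and its 120 hr change of -0.07 (95% interval -0.19 to 0.05) did not pass. Its signal was above the negative controls but near them. Its raw Cy3 change of -0.28 was close to the median of -0.25 over all gene probes, so little can be read of its RNA. Esrrb, an orphan nuclear receptor, lay between -0.03 and 0.42 in signal at the level of the negative controls, and its change of -0.22 (95% interval -0.43 to -0.01, adjusted p = 0.0906) says nothing of its RNA.

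**Figure D1:**
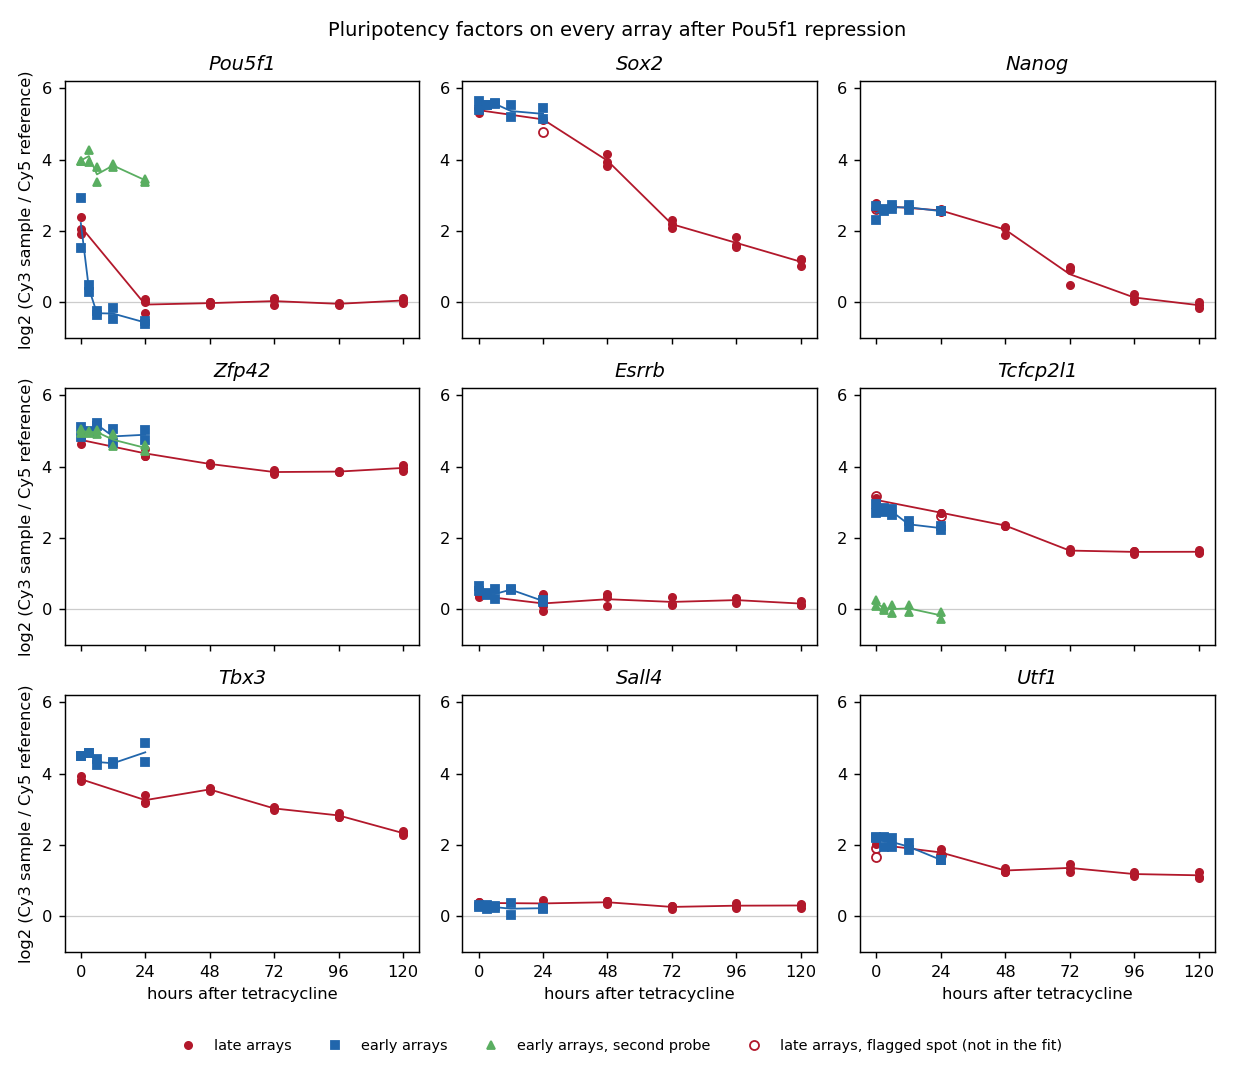
Log2 ratio of sample over reference (vertical axis) for each probe of the 9 genes against hours after Tet (horizontal axis), with 1 point per array. Pou5f1 is near its lowest value by 24 hr, and Sox2 and Nanog are first called lower at 48 hr and reach 1.03 to 1.21 and -0.15 to -0.01 at 120 hr.

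Against the 3.61% of gene probes called lower at 24 hr, 2 of the 9 genes were called lower. At 48 hr it was 6 of 9 against 4.79%, at 72 hr 7 of 9 against 6.41%, at 96 hr 7 of 9 against 7.3% and at 120 hr 7 of 9 against 8.61%. With the outlier spots kept the counts were 5 at 48 hr and 6 at 72 hr, without Utf1. None was called higher at 24, 48, 72, 96 or 120 hr, where 4%, 5.5%, 7.96%, 10.6% and 12.1% of gene probes were. The median change of the 9 probes was -0.26 at 24 hr, -0.68 at 48 hr and -1.45 at 120 hr, beside medians between -0.01 and 0.01 over all gene probes. Of the steps between neighbouring times, that from 48 to 72 hr lowered 3 of the 9 (Sox2, Nanog and Tcfcp2l1) against 0.817% of gene probes. The steps before and after it lowered 1 each, Sox2 from 24 to 48 hr (1.65% of gene probes) and Nanog from 72 to 96 hr (0.242%), and that from 96 to 120 hr lowered none of the 9 against 0.162%. In that last step Sox2 changed by -0.53 (adjusted p = 0.00278) and Tbx3 by -0.50 (adjusted p = 0.000101), both under 1.5-fold.

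The reference channel moved with the sample channel at several of these spots, although the same reference RNA was put on every array. From 0 to 120 hr the raw Cy5 signal of Zfp42 changed by -1.90 on the log2 scale and its Cy3 signal by -3.40. In the same order the values for Utf1 were -1.44 and -2.21, for Nanog -1.28 and -3.32, for Sox2 -0.85 and -4.74, and for Tcfcp2l1 -0.68 and -2.15. Over all gene probes the median Cy5 change was -0.14 and the 5th percentile was -0.33, so the Cy5 signal of these 5 probes fell further than that of 95% of gene probes. 1 Zfp42 spot was saturated in Cy3. When the Cy3 channel was used alone with quantile normalization, the 120 hr changes were -6.14 for Sox2, -5.09 for Nanog, -3.27 for Zfp42 and -2.62 for Utf1. At 24 hr Zfp42 (-1.44), Sox2 (-1.28) and Tcfcp2l1 (-0.92) were then called lower as well. The part of the Cy5 change in the ratios was not tested.

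**Figure D2:**
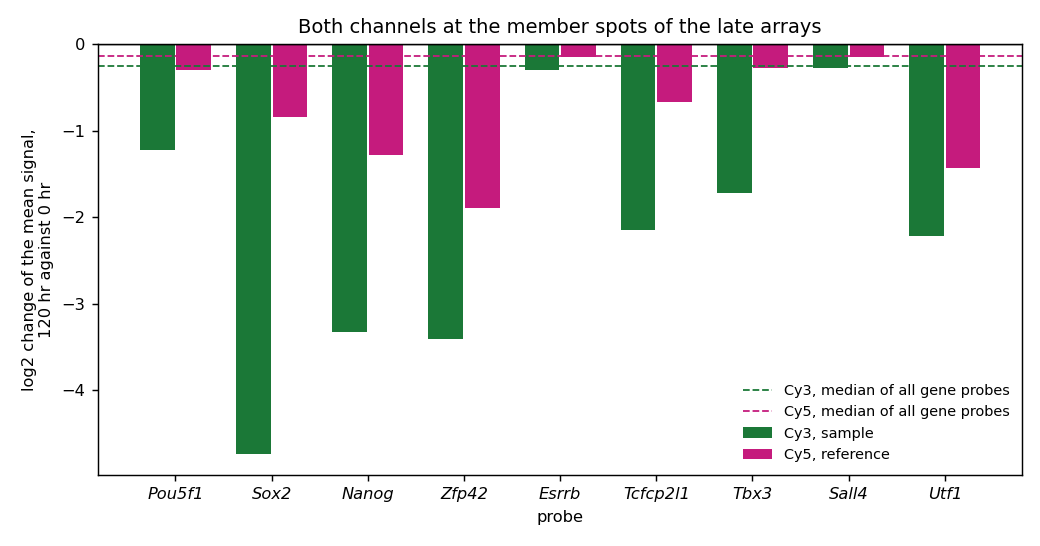
Log2 change of the mean raw signal from 0 hr to 120 hr on the late arrays (vertical axis) in the Cy3 sample channel and the Cy5 reference channel (bars) for each gene, with dashed lines at the medians of all gene probes. The reference bars of Zfp42, Utf1, Nanog, Sox2 and Tcfcp2l1 lie between -1.90 and -0.68, below the median line of -0.14.

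Among the markers of other cell types, those of trophoblast rose in the same late cultures. Of the 8 trophoblast markers measured, 6 were called higher at 120 hr, and their summed Cy3 signal went from between 8087 and 10106 at 0 hr to between 131980 and 179770. Hand1 (0.49) did not pass, nor did Cdx2 (0.16), whose array probe the study describes as unresponsive. Of 5 primitive endoderm markers 1 was called lower and 1 higher, and of 4 neural markers 1 was called higher. None of 3 fibroblast or feeder markers was called. Over all gene probes 8.61% were called lower and 12.1% higher at that time. The summed signal of the 5 ES cell markers went from between 83312 and 97614 to between 11298 and 13952.

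Within the first 24 hr, on the early arrays, the shared Pou5f1 probe had the largest fall of the 12 probes. Its shared probe read 2.92 and 1.52 at 0 hr, then 0.29 and 0.48 at 3 hr and -0.36 and -0.26 at 6 hr. The 12 hr arrays held -0.17 and -0.47, and those of 24 hr held -0.53 and -0.61. The arrays at 0 hr lay further apart than those of any other time, and both lay above all later arrays. The change was -1.83 ± 0.34 at 3 hr, where none of 42001 gene probes (0%) was called and Pou5f1 had an adjusted p of 0.537. It was -2.53 at 6 hr (adjusted p = 0.0254, with 0.105% of gene probes called lower), -2.54 at 12 hr (adjusted p = 0.014, with 0.383% called lower) and -2.79 ± 0.34 at 24 hr (6.91-fold lower, adjusted p = 0.00125). The 24 hr call held with each array left out in turn. The 6 hr call did not hold without the first 0 hr array (-1.83) or the second 6 hr array (-2.58). Likewise the 12 hr call did not hold without the second 12 hr array (-2.39). In Cy3 alone (-2.59, adjusted p = 0.156) and with median centring (-2.50, adjusted p = 0.0709) the 6 hr call was lost too. Without background correction neither the 6 hr call (-1.45, adjusted p = 0.149) nor the 12 hr call (-1.46, adjusted p = 0.105) held. With the more conservative error variance of the study's methods, a t test of each time called none of these changes (adjusted p = 0.245 at 24 hr).

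The second Pou5f1 probe behaved differently on the same arrays. It read 3.97 on both 0 hr arrays, then 3.93 and 4.26 at 3 hr and 3.37 and 3.80 at 6 hr. The 12 hr arrays held 3.86 and 3.80, and those of 24 hr held 3.46 and 3.38. Its 24 hr change was -0.55 ± 0.15 (1.47-fold, adjusted p = 0.0285) and was under the 1.5-fold limit. The letters of both probes are given above. No test of the difference between probes was made.

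The F test over the early times called 5.4% of gene probes and 1 of these 12, the shared Pou5f1 probe (adjusted p = 0.00598). Against 1.97% of gene probes called lower at 24 hr, 2 of the 12 were called lower, Pou5f1 and Utf1, with none called higher (7.05% of gene probes). The median 24 hr change of the 12 was -0.35, beside -0.06 over all gene probes. Utf1 stood at 2.22 and 2.20 at 0 hr, between 1.87 and 2.24 from 3 to 12 hr, and at 1.60 and 1.58 at 24 hr, a change of -0.62 ± 0.12 (1.54-fold, adjusted p = 0.0101), which its F test did not call (adjusted p = 0.057). The 24 hr call was lost with the bleaching correction (-0.42, adjusted p = 0.109). It also did not hold without the first 0 hr array (-0.61), the second 0 hr array (-0.63) or the second 24 hr array (-0.62). Tcfcp2l1 stood at 2.71 and 2.95 at 0 hr and at 2.34 and 2.21 at 24 hr, a change of -0.55 (adjusted p = 0.012) under the 1.5-fold limit. Its second probe, whose ratios lay between -0.26 and 0.26, changed by -0.34 (adjusted p = 0.0651).

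Sox2 and Nanog were not called at any of the early times. Sox2 read 5.40 and 5.64 at 0 hr and 5.44 and 5.12 at 24 hr, a change of -0.24 with a 95% interval from -0.56 to 0.08. Nanog read 2.32 and 2.69 at 0 hr and 2.55 on both arrays at 24 hr, a change of 0.05 with an interval from -0.22 to 0.32. Both Nanog arrays and 1 of the Sox2 arrays at 24 hr lay between the 0 hr arrays. Tbx3 changed by 0.10, Sall4 by -0.07 and Esrrb by -0.35 (adjusted p = 0.653, 0.668 and 0.0414), and none of them reached 1.5-fold. Esrrb lay near the level of the negative controls, and its raw Cy3 signal changed by only -0.02.

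The Zfp42 probes gave different ratios and similar signals. The shared probe read 4.84 and 5.10 at 0 hr and 4.76 and 5.03 at 24 hr, a change of -0.07 (adjusted p = 0.734), and the second probe read 4.95 and 5.05, then 4.62 and 4.44, a change of -0.47 (adjusted p = 0.0254, 1.39-fold). Their raw Cy3 signals changed by -1.15 and -1.26 and their raw Cy5 signals by -1.01 and -0.75. In Cy3 alone the changes were -1.19 (adjusted p = 2.98e-05) and -1.36 (adjusted p = 1.93e-05), both called, as was that of Utf1 (-1.44, adjusted p = 2.61e-05). For Nanog the Cy3 change was 0.09 (adjusted p = 0.543).

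The 24 hr changes of both time courses were set against each other over the 19163 probes that the designs share, of which 15.2% differed. Of the 9 genes 1 was called, Tbx3, by 0.69 ± 0.14 (adjusted p = 0.000946): it read 4.50 on both early 0 hr arrays and 4.34 and 4.87 at 24 hr, where the late arrays held the fall given above. The call did not hold without the second early 24 hr array (0.42, under 1.5-fold) or without background correction (0.48), nor with the authors' values (0.42), the bleaching correction (0.37) or Cy3 alone (0.51). For Sox2 the difference was 0.02, with a 95% interval from -0.36 to 0.41, and for Nanog 0.19 (-0.18 to 0.56). Pou5f1 differed by -0.61 (-1.27 to 0.06), and by -1.31 when the second early 0 hr array was left out (adjusted p = 8.99e-05).

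Across the late arrays, Sox2 and Nanog had the most similar time courses of any 2 of these genes (Pearson r = 0.986 over the 15 arrays that measured both), followed by Sox2 and Tcfcp2l1 (0.97 over 16). Pou5f1, low from 24 hr on, had lower values with Nanog (0.428) and Sox2 (0.512) and a higher one with Zfp42 (0.814). These are descriptions over arrays that share 6 times, and any 2 probes that fall over time correlate. Over all genes on the late arrays, the closest to Sox2 were Tuba3a (0.992), Anp32a (0.991) and Trim24 (0.991), and the closest to Nanog were Trim24 (0.993), Got1 (0.988) and Stmn1 (0.985). Pou5f1 was closest to Pla1a (0.987), Gdf15 (0.983) and Dpys (0.983), and Tcfcp2l1 to Top3b (0.995), Eci1 (0.99) and Sms (0.986). For Tbx3 the closest was Steap1 (0.973), for Zfp42 Zfp219 (0.974) and for Utf1 Pcolce2 (0.967), while Esrrb and Sall4 had no gene above 0.805.

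Other genes of the pluripotency network were called within 24 hr. Of 24 measured genes of that list, 14 were called lower and none higher on the early arrays at 24 hr, where 1.97% and 7.05% of all gene probes were. Among the largest changes were those of Tcl1, a co-activator of AKT kinase (-2.94), and Nr0b1 (Dax1), a nuclear receptor without a DNA-binding domain (-2.17). On the late arrays 12 were lower and 2, Dppa5a (0.94) and Dnmt3b (0.89), higher at 24 hr, beside 3.61% and 4% of all gene probes. At 120 hr 21 were lower and none higher, beside 8.61% and 12.1%, led by Tdgf1, a co-receptor of NODAL (-4.61), and Tcl1 (-4.59). The list's median was -0.74 at 24 hr on the early arrays, where that of the 12 probes was -0.35.

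In the Nanog experiment, the Nanog probe itself was checked first. The integrated clone read 2.48 with LIF, 2.00 without LIF and 2.49 with RA, and its parental line ES 129.3 read 1.61, 1.83 and 1.27. The clone was higher in 3 of 3 media, by 0.17 to 1.22, with a mean of 0.75 ± 0.21 that did not pass (adjusted p = 0.12). The episomal clone read 1.28, 1.47 and 0.66 where MG1.19 read 1.91, 1.93 and 1.26, lower in 3 of 3 media by 0.46 to 0.63 (mean -0.57 ± 0.06, adjusted p = 0.588). The library labelled as the episomal Nanog clone thus had less signal at the Nanog probe than its labelled parental line in each medium. As printed, the Nanog probe has 0 reading frames without a stop codon, so it does not lie wholly within coding sequence of that strand. Whether either transgene carries the probe's sequence is not stated in the sources used here, so the probe may not read the transgene. The study also measured Nanog RNA in both clones by PCR, which is not analysed here.

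The first question that these 4 lines answer is what LIF withdrawal and RA did to the 9 genes, with line as a block. Without LIF, Tcfcp2l1 and Tbx3 fell in all 4 lines. Tcfcp2l1 stood between 2.37 and 3.51 with LIF and between 0.38 and 1.61 without it, with no overlap, and changed by -1.89 to -2.38 within a line (mean -2.14 ± 0.12, 4.40-fold lower, adjusted p = 0.00062). Tbx3 stood at 4.24, 3.64, 2.90 and 1.09 with LIF in the integrated clone, the episomal clone, MG1.19 and ES 129.3, and at 2.37, 2.38, 0.98 and 0.27 without it. It was lower in 4 of 4 lines while the ranges overlapped between lines (mean -1.47 ± 0.22, 2.77-fold lower, adjusted p = 0.0225), and leaving out the integrated clone, the episomal clone or MG1.19 each ended the call (adjusted p = 0.0587 to 0.237).

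LIF withdrawal called 0.532% of gene probes lower and these 2 of the 10, and none of the 10 higher (0.505% of gene probes). Zfp42 was lower in 4 of 4 lines by 0.52 to 1.09 and did not pass (mean -0.69, adjusted p = 0.052), while in Cy3 alone its change of -2.08 was called (adjusted p = 0.026). Nanog changed by -0.01 (95% interval -0.44 to 0.41), Pou5f1 by 0.05 (-0.81 to 0.90), Sox2 by -0.34 (-0.68 to 0.01) and Utf1 by -0.12 (-0.33 to 0.09). In the network list, 6 of 24 genes were lower, led by Klf4, a Krüppel-like factor downstream of LIF (-2.72), Nr0b1 (-2.25) and Tcl1 (-1.66), and 2 were higher, Otx2 (1.42) and Lin28a (0.76).

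With RA it was Utf1, Sox2, Pou5f1 and Zfp42 that fell. RA called 1.23% of gene probes lower than with LIF alone, and 5 of these 10, with none called higher (4.64% of gene probes). Utf1 stood between 1.86 and 2.32 with LIF and between 0.29 and 1.11 with RA, lower in 4 of 4 lines (mean -1.45 ± 0.09, 2.73-fold, adjusted p = 0.000101). Sox2 stood between 5.17 and 5.95 with LIF and between 3.86 and 4.45 with RA, again without overlap (mean -1.39 ± 0.15, adjusted p = 0.000739). Zfp42 changed by -0.85 ± 0.14 (adjusted p = 0.00498), by -0.54 without a call in the processed signals of the scanner software, and by -2.21 in Cy3 alone (adjusted p = 0.0028).

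Both Pou5f1 probes were called lower with RA, by -1.38 ± 0.37 (adjusted p = 0.0419) and -0.95 ± 0.22 (adjusted p = 0.0213). The shared probe read 2.77, 2.81, 2.14 and 2.16 with LIF in the integrated clone, the episomal clone, MG1.19 and ES 129.3, and 2.42, 0.65, 0.82 and 0.49 with RA. The integrated clone kept its level within 0.35, where the other three lines changed by -1.32 to -2.16. Nanog likewise changed least in the integrated clone, by 0.02, and by -0.34 to -0.65 in the other three, and its mean change of -0.40 did not pass (adjusted p = 0.212). With 1 array per line and medium these differences between lines were not tested. Leaving out the episomal clone, MG1.19 or ES 129.3 each ended both Pou5f1 calls (adjusted p = 0.0656 to 0.159). Without background correction neither Pou5f1 call held (adjusted p = 0.15 and 0.0864). In Cy3 alone the call of the shared probe was lost (-1.56, adjusted p = 0.0571), while that of the second probe held (-1.03, adjusted p = 0.021).

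Tcfcp2l1 was lower with RA by 0.57 (adjusted p = 0.0128, 1.49-fold), and Tbx3 stood higher in 4 of 4 lines by 0.25 to 1.53 and did not pass (mean 0.66, adjusted p = 0.0852). Set against cells without LIF, cells with RA, whose medium also held LIF, had 4.40-fold more Tbx3 (2.14 ± 0.22, adjusted p = 0.000648) and 2.96-fold more Tcfcp2l1 (1.56 ± 0.12, adjusted p = 0.000191), where 4.08% of gene probes were called higher. Utf1 (-1.33), Sox2 (-1.05) and both Pou5f1 probes (-1.42 and -0.94) were called lower in the same comparison, where 1.7% of gene probes were. Of the network list 11 of 24 genes were lower with RA than with LIF alone, led by Nr0b1 (-2.78) and Tcl1 (-2.08), and none was higher. Of 9 trophoblast markers 6 were higher with RA, as were 3 of 5 markers of primitive endoderm, and their part in the fall of these genes was not tested.

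**Figure D3:**
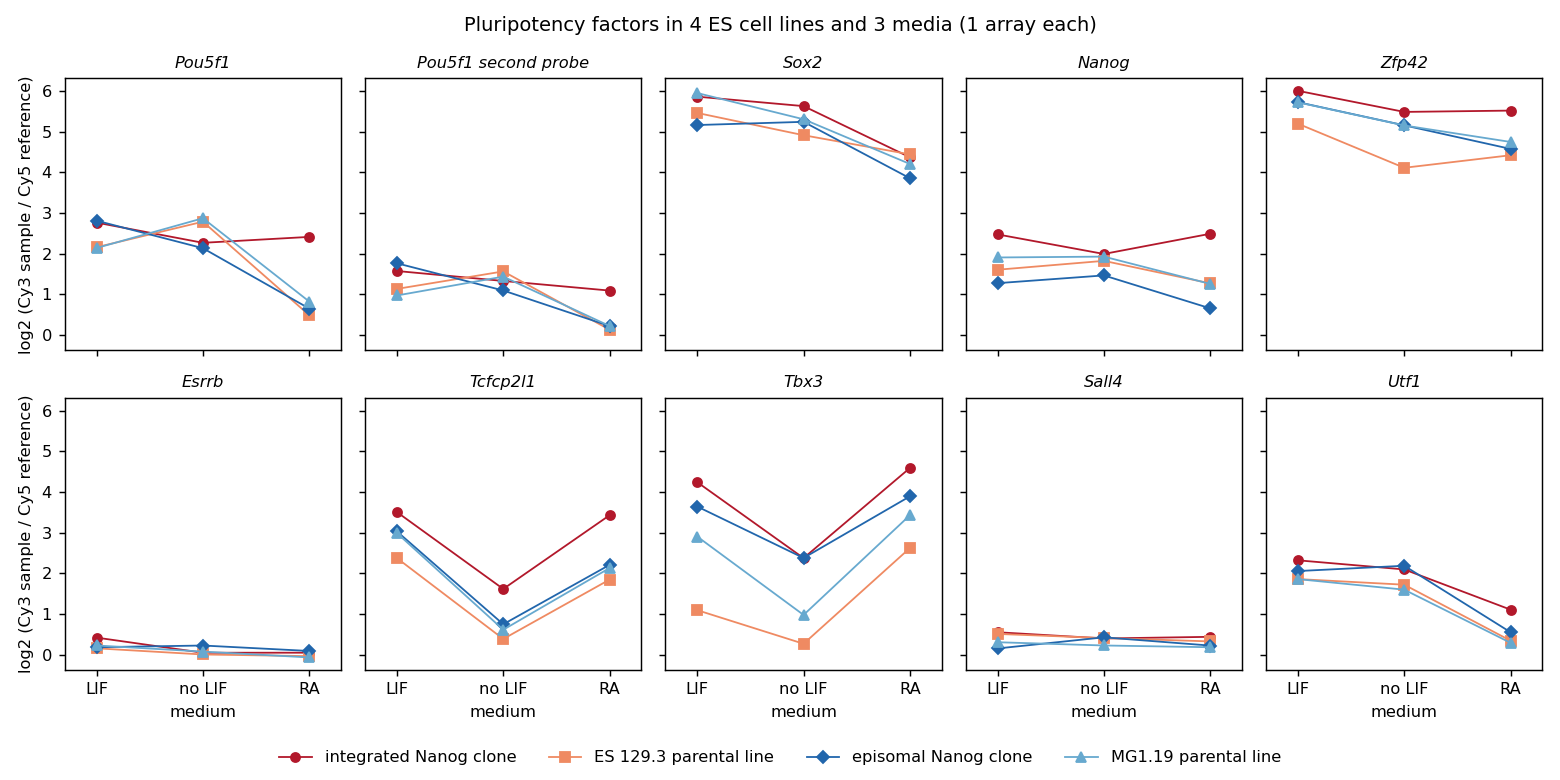
Log2 ratio of each probe (vertical axis) in the 3 media (horizontal axis) for the 4 lines, with 1 point per array. Tcfcp2l1 and Tbx3 dip without LIF in every line, and Utf1 and Sox2 dip with RA in every line.

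The other question of the Nanog experiment is how each clone differed from its parental line over the 3 media. With all 6 pairs together, limma called 2 of 41006 gene probes (0.00488%) and none of these 10. An unadjusted p under 0.05 was reached by 4 of these 10 and by 8095 of the 41006 gene probes. Tbx3 was higher in 6 of 6 pairs (mean 1.64 ± 0.34, adjusted p = 0.0853), as was Utf1 (0.44 ± 0.08, adjusted p = 0.0731). The fit with line and medium in place of the pair called Tbx3 (adjusted p = 0.00596) and Tcfcp2l1 (adjusted p = 0.00925).

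In the integrated clone, 1.69% of gene probes and 3 of these 10 were called higher than in ES 129.3, and none of the 10 was called lower (2.44% of gene probes). Tbx3 stood at 4.24, 2.37 and 4.59 with LIF, without LIF and with RA in the clone and at 1.09, 0.27 and 2.62 in ES 129.3, higher in 3 of 3 pairs (mean 2.41 ± 0.25, 5.31-fold, adjusted p = 0.0158). Tcfcp2l1 was higher by 1.13 to 1.58 (mean 1.32 ± 0.10, 2.49-fold, adjusted p = 0.00989) and Zfp42 by 0.81 to 1.37 (mean 1.09 ± 0.12, 2.13-fold, adjusted p = 0.0167). Utf1 was higher in 3 of 3 pairs (0.53, 1.45-fold, adjusted p = 0.0413), and Sox2 (0.35) and Pou5f1 (0.67) in 2 of 3 without a call. Without background correction none of the 3 calls held (adjusted p = 0.0786 to 0.0899).

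Of the network list 8 of 24 genes were higher in the integrated clone and 1 lower, with Nr0b1 (2.08), Dppa3 (-1.66) and Tcl1 (1.53) in front. The summed Cy3 signal of the 4 fibroblast or feeder markers was between 10195 and 12925 in ES 129.3 and between 3511 and 4125 in the integrated clone, and 1 of these 4, S100a4 (-2.65), was called lower. In the other lines that sum lay between 3431 and 5660. Of 9 trophoblast markers 2, the keratins Krt8 and Krt19, were lower in the clone (-1.50 and -2.02) and none was higher. The part of such cells in the difference between the clone and ES 129.3 was not tested.

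In the episomal clone no gene probe of 41006 (0%) was called, and none of these 10. In limma 4 of the 10 (Nanog, Tbx3, Utf1 and Sox2) had an unadjusted p under 0.05, as had 3456 of the 41006 gene probes. Tbx3 was higher in 3 of 3 pairs (0.47 to 1.40) and so was Utf1 (0.20 to 0.59), while Sox2 was lower in 3 of 3 (by 0.06 to 0.79). Zfp42 was within 0.17 of its parental line in each medium, and Tcfcp2l1 within 0.13.

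The clones' differences from their parental lines were then compared with each other, where 0.461% of gene probes were called higher in the integrated clone. Tcfcp2l1 differed by 1.23 ± 0.12 (adjusted p = 0.0206) and Zfp42 by 1.15 ± 0.15 (adjusted p = 0.0341), and these 2 of the 10 were called. The Tcfcp2l1 call held in 9 of 14 alternatives and the Zfp42 call in 5 of 14 (adjusted p up to 0.115 and 0.141). Leaving out any 1 of the 6 pairs ended the Zfp42 call, and leaving out any 1 of 4 of them ended that of Tcfcp2l1. The difference was 1.32 for Nanog (adjusted p = 0.0767) and 1.54 for Tbx3 (adjusted p = 0.128), neither of which passed. Strain, vector, clone, parental passage and day of image analysis differ together between the pairs and cannot be told apart.

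**Figure D4:**
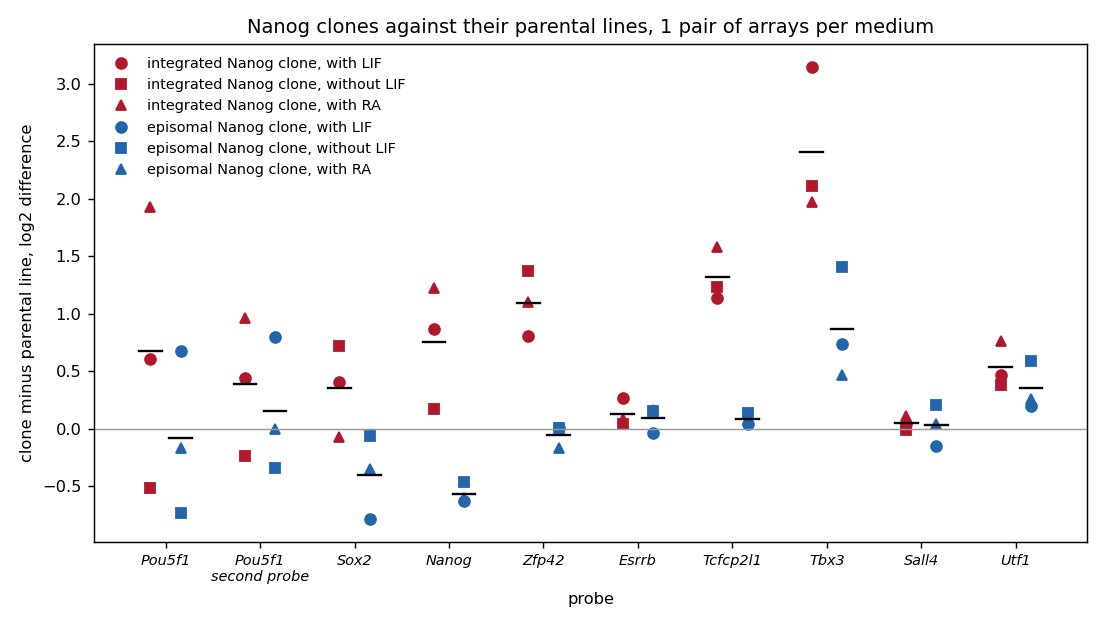
Clone minus parental line in log2 ratio (vertical axis) for each probe, with 1 point per medium for the integrated and the episomal clone. The integrated clone lies above 0 in all 3 media for Tbx3, Tcfcp2l1, Zfp42, Utf1 and Nanog, and the episomal clone lies below 0 in all 3 for Nanog and Sox2.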

How the data were processed

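Agilent 2-colour arrays of 3 designs were hybridised with Cy3-labelled sample RNA (channel 1) and Cy5-labelled reference RNA, with no dye swap: 10 arrays for the early time course, 18 for the late and 12 for the Nanog experiment. The authors deposited the scanner files of Agilent Feature Extraction, whose mean and background intensity columns are linear signals, and a value table on a log10 scale that holds a level per probe and array, used as an alternative only. Its direction and scale were read by setting its differences between arrays against the processed log ratios of the same arrays; it held 7 of the 12 probes for the early arrays, 5 of 9 for the late and all 10 for the Nanog arrays. In 1 column of it the authors had put a code for missing values beside the log10 levels, so that column was recorded as a score and those cells were set missing. The genome build of the designs is not given in the sources used here. The 6 arrays of the parental lines were submitted by the same group with another experiment, and the files give 1 day of image analysis for each time course.

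Mean intensities were corrected with normexp on the median local background (offset 50), normalized within arrays by loess (control and outlier spots at weight 0), and turned into log2 ratios of Cy3 over Cy5 (R 4.3.3, limma 3.58.1). Spots marked as outliers were set missing, saturated spots were kept, and spots of a probe were averaged. Linear models were fitted by limma with empirical Bayes moderation over all gene probes: time as a factor, line and medium for the media, and the pair for the clones. A probe was called at a Benjamini-Hochberg adjusted p of at most 0.05 over all gene probes and a change of at least 1.5-fold. No depth exists for arrays, and the number of arrays limits the precision. The scripts were tested on simulated data. Probes were named through the accessions of the files, RefSeq and probes identical on another design. The rule for named genes was all probes of the 9 genes, the 3 largest called changes of the network list in a comparison and the 3 genes closest to each of the 9 over the late arrays; 1 gene that this rule names is not reported here. These genes, the network list and the marker lists were chosen with earlier results of these data known. The alternatives were no background correction, median centring, the processed signals, the authors' values, a correction of Cy5 bleaching, Cy3 alone, a filter on dim probes, the F test of the study's methods, the replicate block, each array, line or pair left out, and, chosen after seeing the data, outlier spots kept.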

Additional observations from a re-analysis of the deposited data

Results flagged for a closer look

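The 24 hr change of Tbx3 differed between the time courses by 0.69 on the log2 scale (early minus late, limma adjusted p = 0.000946 for the interaction), with a fall on the late arrays and none on the early ones. The call held in 14 of 19 alternatives, and the difference was smaller than 1.5-fold without the second early 24 hr array.

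Between the Nanog clones, the difference from the parental line was larger in the integrated clone by 1.15 for Zfp42 (adjusted p = 0.0341) and by 1.23 for Tcfcp2l1 (adjusted p = 0.0206), from the term for the difference itself. The call held in 5 of 14 alternatives for Zfp42 and in 9 of 14 for Tcfcp2l1, and both were lost without background correction. The integrated clone was above its parental line in 3 of 3 media for both genes. The episomal clone was above its own in 3 of 3 media for Tcfcp2l1, by at most 0.13, and in 2 of 3 for Zfp42, by less than 0.01.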

How the results depend on the processing

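Of 52 changes of single probes that were called, 1039 of 1116 values under the alternatives kept the call and direction, 77 lost the call and none turned its direction. Of 108 that were not called, 33 of 1854 values were called under an alternative and 106 changed sign without being called either way. Without background correction the probes called were 0 for the 24 hr difference between the time courses (1 as reported), 1 for LIF withdrawal (2), 3 for RA (5), 0 for the integrated clone (3) and 0 for the difference between the clones (2). For the 24 hr difference the count was 2 with median centring, 2 with the processed signals, 0 with the bleaching correction and 2 with Cy3 alone, and for the difference between the clones it was 1 with median centring and 1 with the bleaching correction. On the early arrays it was 4 with Cy3 alone and 0 with the F test of the study's methods (1), and over the 6 pairs it was 2 with line and medium in place of the pair (0). Leaving out 1 array, line or pair at a time gave 1 to 3 for the early arrays, 6 to 7 for the late (Utf1 could not be fitted without the second 0 hr array), 0 to 2 for the 24 hr difference, 1 to 2 for LIF withdrawal, 2 to 6 for RA, 3 to 4 for the integrated clone and 0 to 1 for the difference between the clones. The early count was 3 without the second 6 hr array and 2 without the first 24 hr array. The episomal clone had 0 called throughout. The cause of these shifts was not tested.

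Replicate numbers do not pair the samples: the deviations of same-numbered arrays correlated between -0.136 and 0.337 (mean 0.114) over 20 early pairs and between -0.43 and 0.748 (mean 0.151) over 45 late pairs. With the replicate number as a block the counts were 1 on the early arrays, 7 on the late and 1 for the 24 hr difference, as without it. The day of image analysis was the same within each time course, so no block on a day was fitted there, and in the Nanog experiment it was that of the strain. Signal over background limits Esrrb on the late arrays, where no array rose above the negative controls.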
